A study of Mus musculus with 8 samples.

Results

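Genes of DNA replication were followed here in tumours grown from 4T1, a line of mouse mammary carcinoma cells, as 54 genes whose products license, fire, copy and package DNA in S phase. The members were the genes of a textbook list, chosen with earlier results of these data known. A probe was taken for a member where the RefSeq accession printed on the array matched its symbol. All 54 had a probe. They are 54 of 20145 genes that could be named this way, with 67 of the 55681 non-control probes. Of the 54, 53 passed the filter on dim probes and were tested among 16370 named genes, and the remaining gene, Ccne2 (a cyclin E gene), was well above background on 0 of 8 arrays, so that it has no measured level.

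The study profiled tumours intended to overexpress PRH, the homeodomain transcription factor encoded by Hhex. A set of 4 arrays came from tumours of 4T1 cells infected with an adenovirus carrying PRH, and the controls were 4 from tumours of 4T1 cells infected with an empty adenovirus, so that all 8 tumours came from virus-infected cells of the same line. Per the labels, infection lasted 24 h at a multiplicity of 50, the cells went into fat pad number 3 of female BALB/C mice aged 6 to 8 weeks, and tumours were taken on day 22. Both groups carry the mouse numbers 1, 2, 3 and 5, with 1 array a number in each group. The label texts do not settle the material, since the design text speaks of tumours and the extraction protocol of endothelial isolates. All 11 epithelial and all 12 endothelial marker genes were well above background on all 8 arrays, so both kinds of transcript were present.

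DNA replication begins when the origin recognition complex, Cdc6 and Cdt1 load the MCM helicase onto origins, a step held back by geminin. Cyclin E with Cdk2 and the kinase Cdc7 with its partner Dbf4 then fire origins by joining Cdc45 and GINS to the helicase. Polymerase alpha with primase starts each strand, polymerases delta and epsilon extend it with the PCNA clamp loaded by RFC, RPA coats single-stranded DNA, and CAF-1 puts histones behind the fork. Transcripts of many of these genes rise when cells enter S phase, in part through E2F factors, so their summed level is often read as a measure of dividing cells. In bulk tissue, fewer dividing cells and less RNA per cell cannot be told apart.

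Promoter sequence is shown for 5 members because the gene set is known for E2F control and because these members, which all hold a match to 1 consensus before their start, gave different array readings (they were picked after those readings were seen). The motif searched was the E2F consensus in its 4 spellings TTTCCCGC, TTTCGCGC, TTTGCCGC and TTTGGCGC, on both strands, within the 250 bases before each RefSeq start (build GRCm38.p6), and matches may overlap each other. It was found for 10 of the 44 members that have such a window (22.7%), against 583 of all 27025 genes with a window (2.16%). Of the members that read lower below, 3 of 11 with a window held it, and of the other tested members 7 of 33 did. A match describes these letters only. The windows below are 100 bases each, 5′ to 3′ on the gene's strand, with the matches in capitals.
Orc3 (chr4:34614943-34615042, minus strand): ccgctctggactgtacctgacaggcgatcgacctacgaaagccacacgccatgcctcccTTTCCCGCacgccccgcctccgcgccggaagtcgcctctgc
Mcm5 (chr8:75109310-75109409, plus strand): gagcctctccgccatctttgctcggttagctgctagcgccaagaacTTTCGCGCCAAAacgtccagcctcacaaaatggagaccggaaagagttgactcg
Mcm6 (chr1:128359762-128359861, minus strand): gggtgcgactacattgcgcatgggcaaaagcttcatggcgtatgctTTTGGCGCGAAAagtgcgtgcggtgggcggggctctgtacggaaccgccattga
Mcm7 (chr5:138171995-138172094, minus strand): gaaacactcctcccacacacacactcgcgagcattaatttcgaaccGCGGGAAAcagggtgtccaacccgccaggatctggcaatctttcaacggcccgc
Pola1 (chrX:93632240-93632339, minus strand): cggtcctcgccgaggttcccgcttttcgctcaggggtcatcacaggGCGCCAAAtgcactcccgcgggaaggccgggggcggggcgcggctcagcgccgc
In Mcm5 and Mcm6 the capitals run over 2 overlapping matches, read from opposite strands. Orc3, Mcm5 and Pola1 were lower in the arrays labelled PRH, while Mcm6 and Mcm7 did not pass.

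Levels below are log2 signals set against the 75th percentile of that array, so that 0 is the signal that 75% of the non-control spots did not exceed, and a difference is the mean of the 4 PRH-labelled arrays minus that of the 4 control arrays. A gene passed where its adjusted p in the limma fit over all items was under 0.05. The 5 scalings compared are this percentile, median centring, quantile normalization, normexp and the authors' values, and centring on spike-in probes is given apart from them. Hhex itself, the targeted gene, read lower and not higher under its label, at -1.71, -1.46, -1.79 and -1.72 on PRH-labelled arrays 1, 2, 3 and 5, against -0.54, -0.33, -0.69 and -0.78 on the control arrays of the same numbers (difference -1.09, SE 0.149, adjusted p = 0.00685). Hhex had 1 probe, and whether that probe detects the transcript delivered by the virus was not tested. Since its reading is opposite to the intended overexpression, the tumours are called PRH-labelled and every direction is that of the label. Before scaling, this percentile averaged 722.4 ± 41.2 in the PRH-labelled group and 1094 ± 131 in the control group (SD, n = 4 each). The share of non-control spots well above background went the other way, at 72.9% to 74.5% on PRH-labelled arrays and 65.0% to 70.6% on control arrays. The groups thus did not overlap in this share, and its part in the calls was not tested. All 8 arrays were on 1 slide with each group in a column of its own, so that column and group cannot be told apart. After this scaling the median difference was 0.29 over all 34534 tested items and -0.02 over named genes. No spot was saturated, and the number of arrays limits the precision.

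Replication genes moved together from array to array, and 1 control tumour stood apart. Of the 53 tested members 52 were well above background on all 8 arrays. The highest array for a member was control 3 in 40 of 53 cases. Relative to each gene's own mean over the 8 arrays, the median member stood at -0.23, 0.08, -0.18 and -0.21 on PRH-labelled arrays 1, 2, 3 and 5, against -0.09, -0.01, 0.62 and 0.04 on the control arrays of the same numbers. On control 3, 50 of 53 members lay above their own mean, against 10 to 30 on the other 7 arrays. The 13 tested proliferation markers, genes of mitosis and the cell cycle, had a median of -0.15, -0.01, -0.23 and -0.23 on the PRH-labelled arrays, against 0.02, -0.37, 1.03 and 0.08 on the control arrays. The summed level of 12 endothelial markers was lowest on control 3 (19.1 times the 75th percentile, against 47.7 to 55.6 on PRH-labelled arrays and 33.3 to 54.2 on the other control arrays), and so was that of 8 neutrophil markers (29.1, against 82.2 to 127.3 and 83.4 to 174.6) and of the adipocyte and muscle markers (5.15, against 9.23 to 14.4 and 12.0 to 47.3). Control 3 also had the highest fibroblast sum (469.1, against 337.3 to 415.1 and 327.4 to 398.6) and the highest macrophage sum (263.2, against 186.5 to 259.3 and 183.2 to 217.4). The B cell sum was 29.5 on control 1, against 0.651 to 1.19 on PRH-labelled arrays and 0.476 to 0.787 on the other control arrays. Their part in the replication values was not tested.

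**Figure D1:**
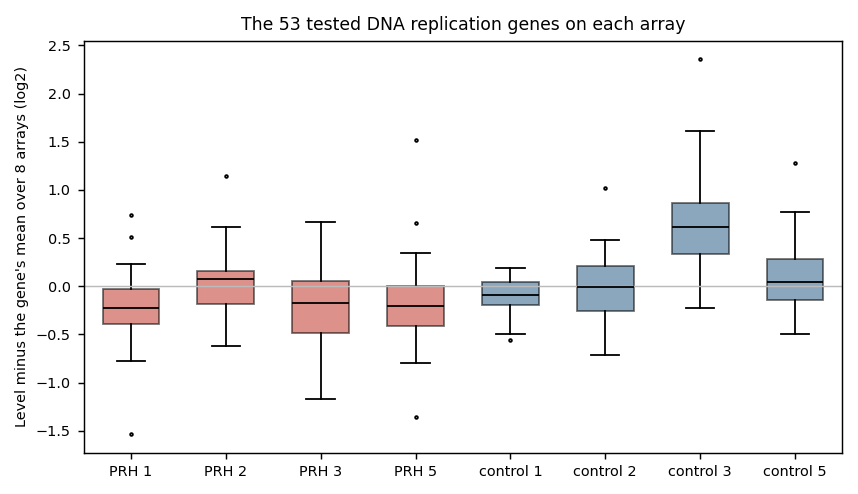
Box plots of the 53 tested replication genes on each of the 8 arrays, as level minus the gene's mean over the arrays (log2; line, median; box, quartiles; whiskers, up to 1.5 times the box height; dots, genes beyond). Control 3 has a median of 0.62, and the other 7 medians lie between -0.23 and 0.08.

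The members tracked each other within the groups. With each array taken as a deviation from its own group mean, a member's correlation with the median of the other members had a median of 0.87 over the 53 genes (8 arrays, which share scaling and slide), and 46 were above 0.5. Without control 3, over 7 arrays, the median was 0.54 and 29 were above 0.5, so part of this covariation rested on that tumour. Gmnn (geminin), Pcna and Fen1 followed the others most closely, at 0.98, 0.97 and 0.97. Gins3 and Orc5 were the members below 0, at -0.24 and -0.35, and Cdc7 stood at 0.06. The median within-group SD of a member was 0.30, against 0.28 for all named genes. The members were brighter, with a median level of 1.82 against 0.002 for named genes. No such correlation was computed for other genes, so it is not shown to be particular to replication genes.

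Of the 53 tested members, 12 were lower and 1 was higher in PRH-labelled tumours, and 40 did not pass. All PRH-labelled arrays lay below all control arrays in each of the 12. Lower calls made up 22.6% of the members, against 12.9% of named genes and 8.68% of all items. Higher calls made up 1.89% of the members, against 10.6% of named genes and 17.2% of all items. Since the list was chosen with earlier results of these data known, no p is given for these shares. The median member differed by -0.28, a shift of -0.25 from the median named gene, and 35 members lay below 0 while 18 lay above. All 4 PRH-labelled arrays lay below all 4 control arrays in 14 members, or 26.4%, against 17.2% of named genes and 11.3% of all items, and above them in 1 member, or 1.89%, against 13.4% and 20.1%. Prim2 passed the filter on dim probes through the control arrays alone, so its call depends in part on that filter. Among genes well above background on all 8 arrays, which leaves Prim2 out and brings Mcm2 past the threshold, 12 of 52 members were lower (23.1%, against 17% of named genes) and 1 was higher (1.92%, against 11.4%).

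The share of lower calls, and how it stood to that of named genes, moved with single arrays. Without control 3, 9 members were lower (17%, against 8.54% of named genes) and 3 were higher (5.66%, against 8.63%), and the median was -0.13, against -0.03 for named genes. Without PRH 5, 3 members were lower, a smaller share than that of named genes (5.66% against 6.75%), and without control 5 the same held (3 members, 5.66% against 6.65%). The members' share was above that of named genes without PRH 1 (9.43% against 6.63%), PRH 3 (9.43% against 7.51%) and control 2 (7.55% against 6.61%). Without PRH 2 they were 13.2% against 7.43%, and without control 1 they were 28.3% against 21.1%.

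**Figure D2:**
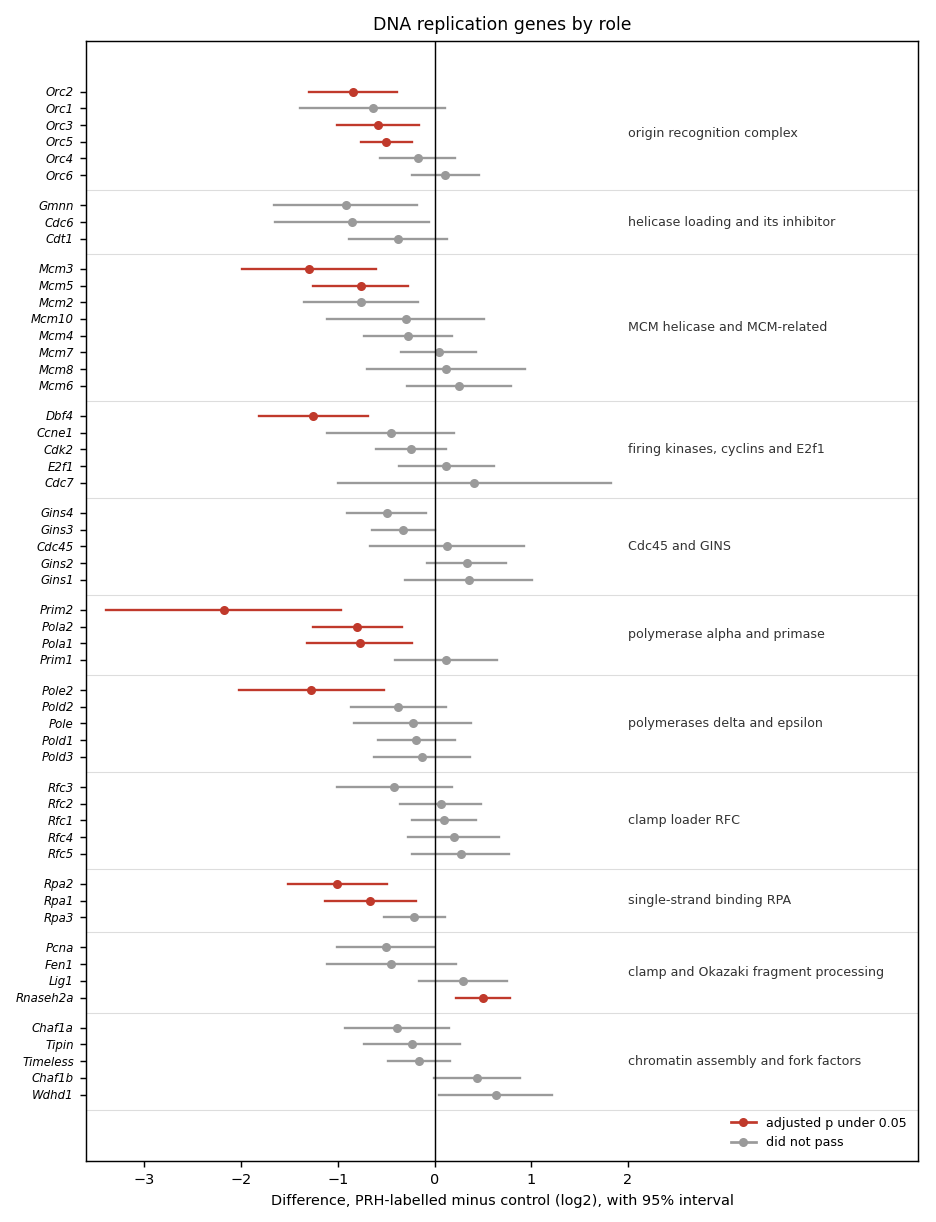
Difference between PRH-labelled and control tumours (log2) for each of the 53 tested replication genes, grouped by role, with points for the estimate and lines for the 95% interval (n = 4 each). The 13 genes that passed are in red, of which 12 lie left of 0 and Rnaseh2a lies right of it.

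Among the origin recognition genes, whose products mark replication origins, 3 of 6 were lower and 0 were higher. Orc2 read -0.80, -0.82, -1.07 and -1.05 on PRH-labelled arrays 1, 2, 3 and 5, against -0.53, -0.03, 0.32 and -0.13 on the control arrays of the same numbers, a difference of -0.84 (SE 0.197, adjusted p = 0.0190) that was lost without PRH 5 (adjusted p = 0.0548) and without control 2. Orc5 read -1.01, -1.16, -1.20 and -1.14 in PRH-labelled tumours, against -0.69, -0.51, -0.68 and -0.63 in control tumours, which gave -0.50 (SE 0.116, adjusted p = 0.0186). The groups did not overlap in either gene, and Orc5 had the smallest spread of all members, with control 3 inside the range of the other control arrays. The Orc5 call held in 3 of 8 fits without 1 array (adjusted p up to 0.0556, without PRH 5). Orc3 stood at 0.95, 1.05, 1.05 and 1.14 against 1.22, 1.67, 2.03 and 1.63 in control tumours, a difference of -0.59 that passed narrowly (SE 0.183, adjusted p = 0.0499) and not without control 3 (-0.46, adjusted p = 0.0858), and it held in 1 of 8 such fits, the one without control 1. Its second, dimmer probe also read lower, by a difference of -0.78 in a fit of all probes. The other 3 did not pass: Orc1 differed by -0.64, Orc4 by -0.18 and Orc6 by 0.11. Orc1 passed as lower with normexp and with the authors' values (adjusted p = 0.0468 and 0.0454). A dimmer probe of Orc4 read lower in the fit of all probes (-0.76, adjusted p = 0.0224), so the probes of this gene differ in their call.

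The genes for helicase loading all had differences below 0 and none passed. Cdc6, the loading factor, read -2.50, -2.44, -2.61 and -2.86 on PRH-labelled arrays, against -2.18, -2.06, -0.68 and -2.07 on control arrays (difference -0.85, adjusted p = 0.106). Gmnn, whose product blocks Cdt1, read -1.27, -0.95, -1.21 and -1.31, against -0.68, -0.72, 0.69 and -0.35 in control tumours (difference -0.92, adjusted p = 0.0692). On these probes the groups did not overlap and control 3 lay far above the other controls. Both passed in each of 4 other scalings (adjusted p from 0.0274 to 0.0380 for Cdc6 and from 0.0169 to 0.0337 for Gmnn), and without control 3 Gmnn passed (-0.60, adjusted p = 0.0452) while Cdc6 did not (-0.50, adjusted p = 0.0582). A second probe of Cdc6 differed by -0.39, with overlapping groups, and did not pass. Cdt1, which brings the helicase to origins, differed by -0.38 (adjusted p = 0.239).

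Of the 6 subunits of the MCM helicase, which act together as a ring, Mcm3 and Mcm5 were lower and 4 did not pass. Mcm3 read 1.50, 1.87, 1.57 and 1.59 on PRH-labelled arrays, against 2.38, 2.58, 3.75 and 3.01 on control arrays, so that every PRH-labelled array lay below every control array. The difference was -1.30 (SE 0.297, 2.46-fold, adjusted p = 0.0178), and -1.02 without control 3 (adjusted p = 0.0210). The call was lost without PRH 1 (adjusted p = 0.0511) and without control 5. Mcm5 read 3.22, 3.54, 3.03 and 2.96, against 3.69, 3.84, 4.43 and 3.85 in control tumours (difference -0.77, SE 0.212, adjusted p = 0.0336). It passed neither without control 3 (-0.61, adjusted p = 0.0553) nor in the fit blocked on mouse number (adjusted p = 0.0522), and of the 8 fits without 1 array it held in the 2 without PRH 2 or control 1. Mcm2 differed by a like amount but did not pass (-0.76, adjusted p = 0.0625), and its PRH-labelled values of 1.39 to 1.73 overlapped the control values of 1.62 to 2.84. Mcm2 passed as lower after median centring, with normexp and with the authors' values (adjusted p = 0.0256, 0.0179 and 0.0198), with the stricter filter (0.0476) and without control 1 (0.00870), while Mcm5 did not pass with normexp or the authors' values. Mcm4 differed by -0.28 (95% interval -0.73 to 0.18), Mcm6 by 0.26 (-0.28 to 0.80) and Mcm7 by 0.05 (-0.34 to 0.43), and these 3 did not pass. Mcm6 stood below 0 after median centring (-0.21), and Mcm7 did so after median centring (-0.42), normexp, the authors' values and spike-in centring. Mcm8 and Mcm10, relatives with other roles, differed by 0.12 and -0.30 and did not pass. The second probe of Mcm8 stood at -0.64, the opposite sign, and did not pass either.

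Log ratios of subunits within an array were set between the groups after these values had been seen. No shift of a whole array changes such a ratio, but a difference between arrays that depends on signal level can. In each MCM ratio printed below, the first gene was the dimmer one in both groups, and the part of signal level was not tested. For Mcm3 over Mcm7 the ratio was -3.23, -3.09, -3.34 and -3.25 on PRH-labelled arrays, against -2.37, -2.02, -1.47 and -1.68 on control arrays (difference -1.34). For Mcm3 over Mcm6 the difference was -1.55, and for Mcm5 over Mcm6 it was -1.02. The groups did not overlap in any of these 3 ratios, nor in Mcm3 over Mcm5 (-0.53). In all, the groups did not overlap in 12 of 15 MCM pairs and in 29 of 63 pairs over 12 complexes (46%), or 27 of 60 without Prim2 (45%), against 27.3% of all pairs of tested named genes. Each such pair had the smallest p that the exact two-sided permutation test over 70 arrangements can give (0.0286), which was 0.0621 after Benjamini-Hochberg adjustment over the 63 pairs, so no pair passed at 0.05. That test does not use the mouse numbers, and within them 16 sign arrangements allow no two-sided p under 0.125. The count of MCM pairs without overlap was 10 with quantile normalization and 9 with normexp or the authors' values. Pairs of a complex share genes and arrays, so the pair counts and shares are not of independent units. Every pair with Mcm3 was among the 12 MCM pairs without overlap.

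**Figure D3:**
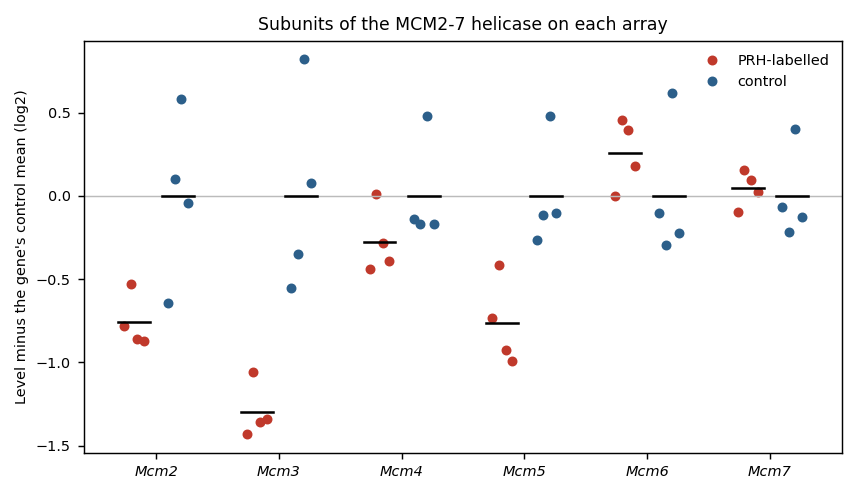
Levels of the 6 MCM subunits on each array, minus the gene's mean over the 4 control arrays (log2), with PRH-labelled arrays to the left of control arrays for each gene and a bar at each group mean. The PRH-labelled points of Mcm3 lie below all its control points, while those of Mcm6 and Mcm7 lie among the control points.

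Dbf4, the activating partner of the Cdc7 kinase that fires origins, was lower in PRH-labelled tumours under every array left out. It read -0.46, -0.33, -0.49 and -0.30 on PRH-labelled arrays, against 0.41, 0.61, 1.52 and 0.89 on control arrays, with no overlap. The difference was -1.25 (SE 0.241, 2.38-fold, adjusted p = 0.0106). It passed in all 8 fits that left out 1 array, with adjusted p up to 0.0337, and in all 5 scalings, but not with spike-in centring (adjusted p = 0.126). Cdc7 itself did not pass. Its PRH-labelled values ran from -5.11 to -2.42 against -4.50 to -3.90 in control tumours, and its 2 probes had opposite signs (0.41 and -0.32, neither of which passed). The cyclin gene Ccne1 differed by -0.46, its kinase Cdk2 by -0.25 and the transcription factor gene E2f1 by 0.12, and none passed. E2f1 had 95% limits of -0.37 and 0.62.

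Of Cdc45 and the 4 GINS genes, which complete the active helicase, 0 passed in either direction. Gins1 and Gins2 lay above 0 (0.35 and 0.33), Gins3 and Gins4 below it (-0.32 and -0.49), and Cdc45 at 0.13. Without control 3, Gins1 and Gins2 passed as higher (0.62 and 0.48, adjusted p = 0.0457 and 0.0487). Without control 1, Gins4 and Gins3 passed as lower (-0.63 and -0.40, adjusted p = 0.0102 and 0.0478). Gins4 also passed as lower after median centring, with normexp and with the authors' values (adjusted p = 0.0256, 0.0225 and 0.0276), and Gins3 after median centring (0.0233). The log ratios of Gins4 to Gins1 and of Gins4 to Gins2 did not overlap between the groups (differences -0.85 and -0.83).

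Of the 4 genes of polymerase alpha and primase, which lay down the RNA and DNA primers, Pola1, Pola2 and Prim2 were lower. Prim2 counts here only because it passed the filter on dim probes through the control arrays. Prim2, the large primase subunit, read -6.04, -5.13, -5.36 and -5.86 on PRH-labelled arrays, against -4.79, -3.48, -2.15 and -3.23 on control arrays, and it was well above background on 1 of 4 PRH-labelled and 4 of 4 control arrays. The fitted difference of -2.18 (SE 0.524, adjusted p = 0.0209) thus rests on PRH-labelled values mostly not well above background and is no exact size. Pola2, the accessory subunit, read -1.01, -1.07, -1.46 and -1.33, against -0.67, -0.54, 0.04 and -0.51 in control tumours (difference -0.80, SE 0.197, adjusted p = 0.0228). Both genes also passed without control 3 (-1.76 and -0.65, adjusted p = 0.0337 and 0.0351). The Prim2 call was lost without PRH 1, PRH 5, control 2 or control 5 (adjusted p up to 0.0590), and the Pola2 call without PRH 3, PRH 5 or control 5 (up to 0.0635). Pola1, the catalytic subunit, read 0.12, 0.54, 0.48 and 0.19, against 0.62, 0.88, 1.45 and 1.49 in control tumours (difference -0.77, SE 0.235, adjusted p = 0.0461). It passed in 1 of 8 fits without 1 array, the highest adjusted p being 0.114 without control 5. Prim1, the small primase subunit, differed by 0.12 (95% interval -0.41 to 0.65). The log ratios of Pola1 and Pola2 to Prim1 each did not overlap between the groups (differences -0.89 and -0.92).

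Among the polymerase delta and epsilon genes, Pole2 alone of 5 passed. Pole2, the second subunit of the leading-strand polymerase, read -0.93, -0.99, -1.21 and -1.26 on PRH-labelled arrays, against -0.42, 0.00, 1.15 and -0.02 on control arrays. The difference was -1.27 (SE 0.324, 2.42-fold, adjusted p = 0.0252), and -0.95 without control 3 (adjusted p = 0.0199). Of the 8 fits without 1 array it held in 2, those without control 1 or control 3 (adjusted p up to 0.0660, without PRH 5). The catalytic gene Pole differed by -0.23, and Pold1, Pold2 and Pold3 by -0.19, -0.37 and -0.13. A second probe of Pole was well above background on 0 of 8 arrays. The Pole2 to Pole ratio did not overlap between the groups (difference -1.05).

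All 5 clamp loader genes fell short of the threshold, with -0.42 for Rfc3, 0.06 for Rfc2, 0.10 for Rfc1, 0.20 for Rfc4 and 0.27 for Rfc5. The single-strand binding genes went lower in 2 of 3 cases. Rpa2, the middle subunit, read -0.53, -0.37, -0.68 and -0.72 on PRH-labelled arrays, against 0.08, 0.30, 1.02 and 0.33 on control arrays. Its difference of -1.01 (SE 0.220, 2.01-fold, adjusted p = 0.0153) passed in all 8 fits that left out 1 array and in all 5 scalings, as that of Dbf4 did. Rpa1, the large subunit, read 2.47, 2.91, 2.59 and 2.52, against 3.12, 3.00, 3.78 and 3.25 in control tumours (difference -0.66, SE 0.204, adjusted p = 0.0479). That call was lost without control 3 (adjusted p = 0.0704) and when blocked on mouse number (adjusted p = 0.0639), and it held in 1 of 8 fits without 1 array, the one without control 1. Rpa3, the small subunit, differed by -0.21 (95% interval -0.52 to 0.10).

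Rnaseh2a, the catalytic subunit of the enzyme that removes ribonucleotides from DNA, was the single member that rose. It read 2.98, 3.18, 3.19 and 2.98 on PRH-labelled arrays, against 2.64, 2.59, 2.63 and 2.48 on control arrays, with no overlap and with control 3 among the other controls. The difference was 0.50 (SE 0.120, 1.41-fold, adjusted p = 0.0212). All 4 of its probes were higher, by 0.50, 0.56, 0.34 and 0.78, and 3 of them passed in the fit of all probes. The call was lost after median centring (0.03, adjusted p = 0.903) and held with quantile normalization, normexp and the authors' values (0.57 to 0.60). It was also lost without PRH 2, PRH 3, control 2 or control 5 (adjusted p up to 0.0652). Pcna, the sliding clamp, Fen1, the flap nuclease, and Lig1, the ligase of Okazaki fragments, differed by -0.51, -0.45 and 0.30 and did not pass. Pcna read 3.91 to 4.21 in PRH-labelled tumours, against 4.16 to 5.13 in control tumours, and its adjusted p was 0.124. It passed as lower after median centring, with normexp and with the authors' values (adjusted p = 0.0303, 0.0141 and 0.0164).

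None of the 5 chromatin assembly and fork genes passed. Chaf1a and Chaf1b, subunits of CAF-1, differed by -0.39 and 0.44, and their log ratio did not overlap between the groups, at -2.17 to -2.11 in PRH-labelled and -1.64 to -1.13 in control tumours. Wdhd1, which ties polymerase alpha to the helicase, differed by 0.63 (adjusted p = 0.104) and passed as higher with the mouse number as a block (adjusted p = 0.0335). Tipin and Timeless, the fork protection pair, differed by -0.23 and -0.16, and a dimmer Timeless probe stood at 0.03.

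**Figure D4:**
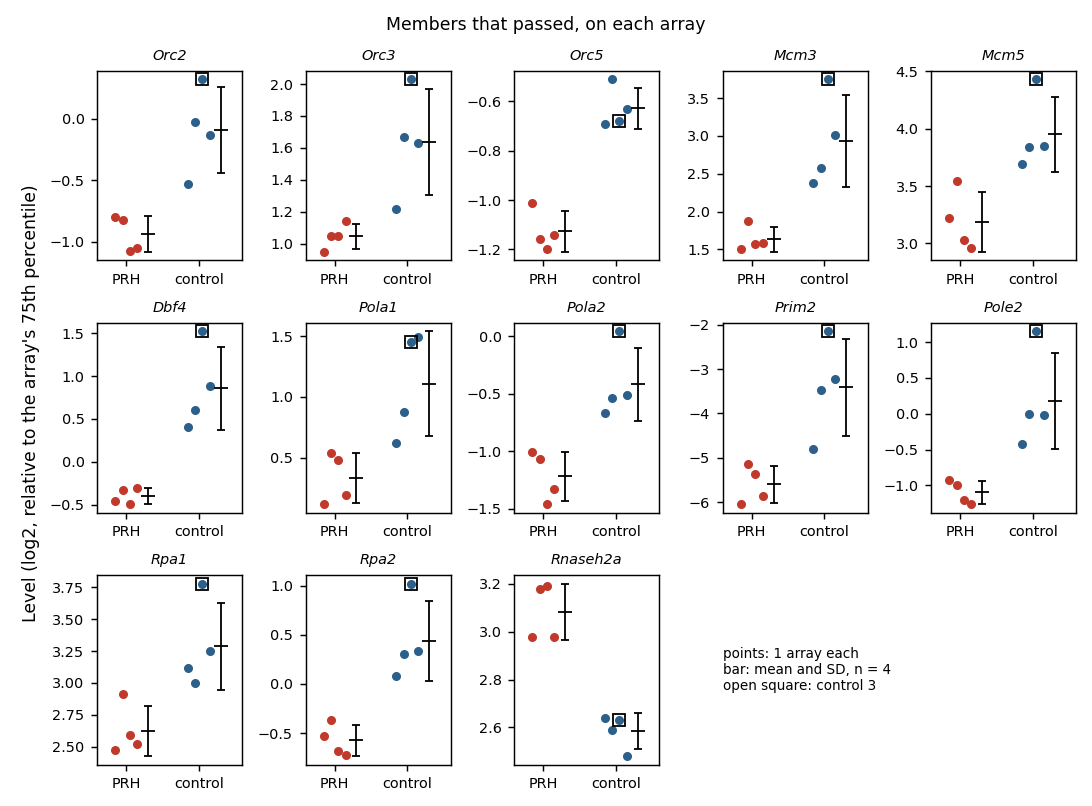
Levels of the 13 members that passed on each array (log2 against the 75th percentile of that array), with PRH-labelled arrays left of control arrays, mean and SD beside the points (n = 4 each) and an open square around control 3. Control 3 is the highest control array for 10 of the 12 genes that were lower, all but Orc5 and Pola1.

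Which members passed depended on the scaling, while the median member lay below the median named gene in each of the 5. Of the 12 lower calls, 9 held in all 5 scalings (17% of members, against 11.4% of named genes): Orc2, Orc5, Mcm3, Dbf4, Pola1, Pola2, Prim2, Pole2 and Rpa2. Prim2 is among these 9 only because it passed the filter on dim probes through the control arrays. Orc3, Mcm5 and Rpa1 were lost with normexp and with the authors' values. Median centring gave 47.2% of members lower (named genes 32.6%) and 0% higher (named genes 4.18%). Quantile normalization gave 26.4% lower (named genes 18%) and 1.89% higher (named genes 8.56%). Under normexp 28.3% were lower (named genes 18.5%) and 1.89% higher (named genes 8.04%), and the authors' values gave the same member shares against 17.3% and 8.06% of named genes. The median member minus the median named gene was -0.25, -0.19, -0.14 and -0.15 in these 4 scalings. No member was higher in all 5, against 2.86% of named genes. In the fit blocked on mouse number 10 members were lower (18.9%) and 2 were higher (3.77%), against 12.4% and 15% of named genes. Centring on 7 spike-in probes left 0 members and 0 named genes called by limma.

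**Figure D5:**
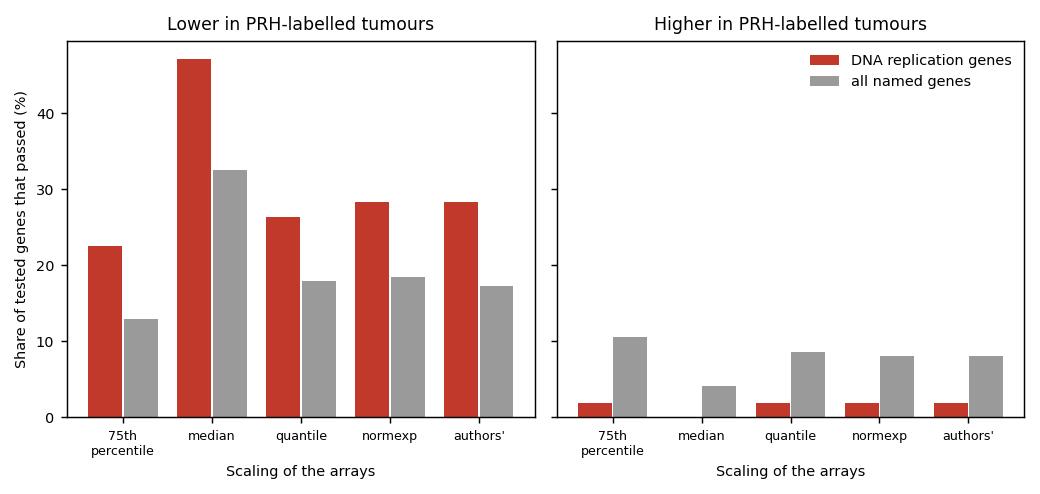
Share of the 53 replication genes (red) and of all 16370 named genes (grey) that passed as lower (left) or higher (right) in PRH-labelled tumours, in percent, under 5 scalings of the arrays. The red bars stand above the grey ones on the left in each scaling, 22.6% against 12.9% with the 75th percentile, and below them on the right.

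Other replication genes outside the 54 gave a similar median with a smaller share of calls in the main fit. Of 48 tested, 6 were lower (12.5%) and 1 was higher (2.08%), with a median difference of -0.32, against 12.9% and 10.6% of named genes, so in this scaling the lower share was at the background. That depended on the scaling. Of the 48, 23 were lower after median centring (named genes 32.6%) and 11 with quantile normalization (named genes 18%). With normexp 13 were lower (named genes 18.5%), and with the authors' values 11 (named genes 17.3%). Pole4, a small subunit of polymerase epsilon, differed most among these, at -0.70, -0.38, -0.70 and -0.47 on PRH-labelled arrays, against 0.14, 0.78, 0.94 and 0.69 on control arrays (difference -1.20, adjusted p = 0.00770). Mcm9, an MCM relative of DNA repair, differed by -1.03 (adjusted p = 0.00737) and Dna2, a nuclease and helicase of Okazaki fragments, by -0.81 (adjusted p = 0.0124). Donson, a fork factor, differed by -0.73, Rbl1 by -0.54 and Rb1, both retinoblastoma family genes that restrain E2F, by -0.53 (adjusted p = 0.0334, 0.0192 and 0.0438). Pole4, Mcm9 and Dna2 passed in all 8 fits without 1 array, while Donson passed in 3, Rbl1 in 4 and Rb1 in 0 of them, and Rb1 did not pass with the block (adjusted p = 0.0705). Rnaseh2c, the partner of Rnaseh2a in the same enzyme, was the higher one, at 4.24, 4.41, 4.45 and 4.20 against 4.03, 3.84, 3.83 and 3.74 in control tumours (difference 0.47, adjusted p = 0.0336), but it passed in 1 of 8 fits without 1 array (adjusted p up to 0.0947, without control 5) and not with the block (adjusted p = 0.0553). The third subunit gene, Rnaseh2b, differed by -0.38 and did not pass.

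Of 13 proliferation markers, 2 were lower, the mitotic kinase genes Cdk1 (difference -1.63, adjusted p = 0.0125) and Aurka (-1.07, adjusted p = 0.0412), or 15.4%, near the 12.9% of named genes, and 0 were higher with limma. Cdk1 passed in all 8 fits without 1 array and Aurka in 3 of them. Mki67, the common marker of dividing cells, named after its values were seen, read 4.02, 4.16, 3.89 and 3.99 on PRH-labelled arrays, against 4.25, 3.52, 5.21 and 4.33 on control arrays, and the groups overlapped. Epithelial markers summed to 445.9 to 588 times the 75th percentile in PRH-labelled tumours, against 319.8 to 432.9 in control tumours, without overlap, and 2 of 11, Krt18 and Krt14, were higher. Krt18 passed in 1 of the 5 scalings and in 3 of 8 fits without 1 array, and Krt14 in 5 and in 7. Of 12 endothelial markers Kdr was higher, of 8 fibroblast markers Pdgfra and Pdgfrb were lower, of 8 macrophage markers Mrc1 was lower, and of 8 neutrophil markers 1 was higher and 1 lower. With limma, 0 of 10 T and NK, 5 B, 6 keratinocyte and 8 adipocyte and muscle markers passed. In the same fit 10.6% of named genes were higher and 12.9% were lower, and the marker counts were not tested against these shares. Sums of the fibroblast, macrophage, neutrophil, T and NK, B, keratinocyte, endothelial, and adipocyte and muscle lists overlapped between the groups. Their part in the replication values was not tested.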

How the data were processed

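RNA of 8 samples, tumours per the series' design text, was labelled with Cy3 and hybridised to 1-colour Agilent arrays. Scanner intensities as deposited come from Feature Extraction 10.7.3.1 by Agilent, with mm9 as the build of the array design, per the file headers, while the submitters' processing notes name version 9.1, and the processed signal is background-corrected but not scaled between arrays. The authors' normalized table also holds intensity values on a linear scale; it was normalised in R, per the labels, and its background step and offset stay unknown.

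Each array's processed signal was put on the log2 scale and its 75th percentile subtracted. Control spots were left out, outlier spots were left out where a probe had others, and spots of a probe were averaged. Probes well above background on at least 4 of 8 arrays (39453 probes) were tested, with a gene represented by its brightest probe and unnamed probes kept as items. Names came from RefSeq accessions and a RefSeq table of assembly GRCm38.p6, and all member probes matched.

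The comparison used limma (version 3.58.1, under R 4.3.3) with lmFit and eBayes. Its p-values are two-sided and adjusted by Benjamini-Hochberg over 34534 items, with a threshold of 0.05, and the fit was tested on simulated data. The normexp alternative used the median spot signal with an offset of 50, in place of the mean. Both groups share mouse numbers, but it is not stated that tumours of the same number are paired, and the main fit does not use the numbers. Deviations of same-numbered arrays from their group means correlated at 0.203, 0.436, 0.666 and 0.274 for numbers 1, 2, 3 and 5. No values for arrays of different numbers are given beside these, so they do not show pairing. P-values reflect variation among these tumours alone.

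Every member is accounted for. Values on each array are given for each member that passed, and others are given by their differences, with array values for some chosen after they were seen. The within-complex ratios were chosen after the values were seen, and so was their comparison with all pairs of named genes. Other replication genes are named where they passed, and Rnaseh2b and Mki67 were added after their values were seen. The members and lists were chosen with earlier results of these data known.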

Additional observations from a re-analysis of the deposited data

Results flagged for a closer look

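In groups of 4 arrays, an array was marked where its gap to the nearest other array took up most of the group's range, past the 95% critical value of Dixon's test. Of 106 groups of the 53 tested members, 11 held such an array, and for a single group chance gives about 1 in 20. Members moved together from array to array, so the groups are not independent and that rate cannot judge the count. Control 3 was the array in 10 of the 11, always as the highest. It read -1.64 for Orc1 (others -2.82 to -2.70), -0.68 for Cdc6 (-2.18 to -2.06), 3.77 for Cdt1 (3.01 to 3.14), 4.70 for Mcm4 (4.05 to 4.08) and 2.20 for Mcm10 (0.64 to 0.82). It also read 1.74 for Ccne1 (0.76 to 0.90), 1.88 for E2f1 (1.00 to 1.13), 3.14 for Rfc1 (2.77 to 2.82), 2.57 for Rfc4 (1.79 to 1.91) and 3.46 for Fen1 (2.18 to 2.38). None of these 10 genes passed between the groups. The other was Rfc5 on PRH 2, at 3.33 (2.96 to 3.01).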

How the results depend on the processing

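Hhex kept its direction in every alternative and lost its call with spike-in centring alone (-1.22, adjusted p = 0.142), a setting that left 1 of 34534 items called. The count of members lower was 25 after median centring and 0 with spike-in centring, and 3 to 15 without single arrays (5.66% to 28.3% of members, against 6.61% to 21.1% of named genes). The count higher was 0 after median centring and with spike-in centring, 2 with the replicate block, and 0 to 3 without single arrays. The median member difference was -0.74 after median centring and -0.35 to -0.13 without single arrays. Of the 48 other replication genes tested, 23 were lower with median centring (named genes 32.6%) and 11 with quantile normalization (named genes 18%). With normexp 13 were lower (named genes 18.5%), with the authors' values 11 (named genes 17.3%) and with spike-in centring 0 (named genes 0%). Among genes above background on all arrays 10 were lower (named genes 17%), and without single arrays 3 to 11 (named genes 6.61% to 21.1%). Those higher numbered 0 after median centring (named genes 4.18%), with spike-in centring (0%), without a filter (8.17%) and with the replicate block (15%). They numbered 2 with quantile normalization (named genes 8.56%), normexp (8.04%), the authors' values (8.06%) and the stricter filter (11.4%). Without single arrays 0 to 2 were higher (named genes 7.02% to 12.2%).

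None of the 13 members that passed changed sign in any alternative. Dbf4 and Rpa2 kept their call in all 8 fits without 1 array. Of the 13 calls, 7, 6, 8 and 9 were lost without PRH 1, 2, 3 and 5, and 0, 9, 4 and 10 without control 1, 2, 3 and 5. The replicate block ended the calls of Mcm5 and Rpa1, brought Wdhd1 past the threshold, and changed no other call of a member.

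Sign changes among members that did not pass were as follows. After median centring Orc6 stood at -0.35, Mcm6 at -0.21, Mcm7 at -0.42, Mcm8 at -0.35, Cdc7 at -0.054, E2f1 at -0.34, Cdc45 at -0.33, Gins1 at -0.11, Gins2 at -0.13, Prim1 at -0.35, Rfc1 at -0.37, Rfc2 at -0.40, Rfc4 at -0.27, Rfc5 at -0.20, Lig1 at -0.17 and Chaf1b at -0.028. With quantile normalization Mcm8, Cdc7 and Cdc45 stood at -0.33, -0.14 and -0.16. With normexp Mcm7, Mcm8, Cdc45, Pold1 and Rfc1 stood at -0.038, -0.030, -0.18, 0.066 and -0.011, and with the authors' values at -0.050, -0.045, -0.18, 0.067 and -0.006. With spike-in centring Orc6, Mcm7, Mcm8, E2f1, Prim1, Rfc1 and Rfc2 stood at -0.016, -0.084, -0.011, -0.006, -0.009, -0.031 and -0.065, and where the probes of a gene were averaged Mcm8 stood at -0.26. Without single arrays the ranges that crossed 0 were -0.028 to 0.18 for Mcm7, -0.082 to 0.34 for Mcm8, -0.45 to 0.067 for Mcm10, -0.027 to 0.87 for Cdc7, -0.031 to 0.41 for Cdc45, -0.02 to 0.31 for Prim1, -0.24 to 0.053 for Pold3, -0.39 to 0.006 for Pole and -0.032 to 0.20 for Rfc2. Median centring moved every member by -0.47 and spike-in centring by -0.13, which sets the sign changes under these 2 by construction. The cause of the other changes was not tested. With 4 arrays a group, small differences could not be told from 0, and Prim2 and Ccne2 are limited by signal near or below background.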
